A study of Mus musculus with 6 samples.

Results

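The genes described here encode the enzymes that turn arachidonic acid into leukotrienes and prostanoids: Pla2g4a, Alox5, Alox5ap, Lta4h, Ltc4s, Ptgs1, Ptgs2, Ptges, Tbxas1 and Hpgds. They were chosen by gene symbol, and each of the 10 matched 1 row among the 38087 genes of the table. RNA was sequenced from mouse bone marrow-derived macrophages given 10 nM resolvin D1 (RvD1) for 6 h and from untreated cultures, with 3 libraries in each group. All cells came from male C57BL/6J mice, aged 8 to 10 weeks in the protocol and 2 to 4 months in the age label, spent 7 days in 10 ng/ml M-CSF, the growth factor of macrophages, and another 24 h without it before RvD1 was added. RvD1 is a lipid mediator made from docosahexaenoic acid that dampens inflammation through the receptor ALX/FPR2. The labels describe no vehicle for the untreated cultures, and do not give how many mice or dishes supplied each group. The tests therefore measure the spread between these libraries, which may be technical.

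Arachidonic acid is stored in membrane phospholipids and is set free by cytosolic phospholipase A2. In the leukotriene branch, 5-lipoxygenase and its membrane partner FLAP make leukotriene A4, which is hydrolysed to the neutrophil attractant leukotriene B4 or joined to glutathione to give leukotriene C4. In the prostanoid branch, a cyclooxygenase makes prostaglandin H2, which terminal synthases convert to prostaglandin E2, prostaglandin D2 or thromboxane A2. Macrophages are a major source of both families, and the inducible cyclooxygenase is known for its sharp response to inflammatory stimuli.

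None of the 10 enzyme genes differed between RvD1-treated and untreated macrophages beyond the spread between libraries (limma, 0 of 10 at a Benjamini-Hochberg adjusted p under 0.05 and 0 of 10 at an unadjusted p under 0.05). Across all 18899 tested genes, 1.12% passed the adjusted threshold, 0.561% higher and 0.556% lower with RvD1 (106 and 105 genes, or 60 and 98 after centring on the median), and 19.9% passed the unadjusted one, 10.3% higher and 9.65% lower. Counts called without adjustment use that unadjusted threshold of 0.05. The groups overlapped in each of the 10 genes, while they were apart in 25.4% of all tested genes. The median log2 difference, RvD1 minus untreated, was 0.02 over the 10 genes and 0.00 over all tested genes, with 6 positive and 4 negative among the 10. For 7 of the 10 the 95% interval of the difference lay inside a 1.5-fold change in either direction, and for 5 of them, Pla2g4a, Lta4h, Ptgs1, Tbxas1 and Hpgds, inside 1.25-fold. The intervals of Alox5, Ltc4s and Ptgs2 were wider. A 1.5-fold change could not be told from none in either direction for Alox5, downward for Ltc4s and upward for Ptgs2.

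Values below are log2 normalized reads as deposited, where 0 is a floor, and they are given for replicates 1, 2 and 3 in that order. Depth, estimated from the spacing of low values, was 11.2 to 16.3 M reads in the RvD1 libraries and 9.03 to 14.3 M reads in the untreated libraries. All 9 macrophage markers examined were present, from Lyz2, which encodes lysozyme, at a mean of 15.98 to the Fc receptor gene Fcgr1 at 10.10, and 0 of the 9 passed the test (limma). Transcripts of other cell types were present as well. The summed antilogs of 7 stromal markers, led by the collagen gene Col1a1, were 36933 to 57559 in RvD1 libraries and 40581 to 47590 in untreated libraries, and those of 9 neutrophil markers, led by S100a9, were 5431 to 14295 in RvD1 and 4191 to 14689 in untreated libraries. The 9 mast cell markers summed to 101 to 210 in RvD1 and 83.3 to 124 in untreated libraries. Of these 9 markers 8 were tested and 0 passed (limma), and the defining gene Ms4a2 was listed at 0 in 3 of the 6 libraries, while Kit, Cpa3, Tpsb2, Cma1 and Hdc were above 0 in all 6. The log2 difference was 0.60 for Kit, 1.41 for Cpa3, 0.74 for Cma1, 0.36 for Tpsb2 and 0.36 for Hdc. Near the floor, it was 1.15 for Mcpt4, 0.72 for Fcer1a and -0.46 for Ms4a2, the only negative one. The limma adjusted p of these 8 ran from 0.261 to 0.745. The lymphocyte markers Ms4a1 and Cd3e were listed at 0 in every library. In bulk RNA, fewer cells of a type cannot be told from less RNA per cell.

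**Figure D1:**
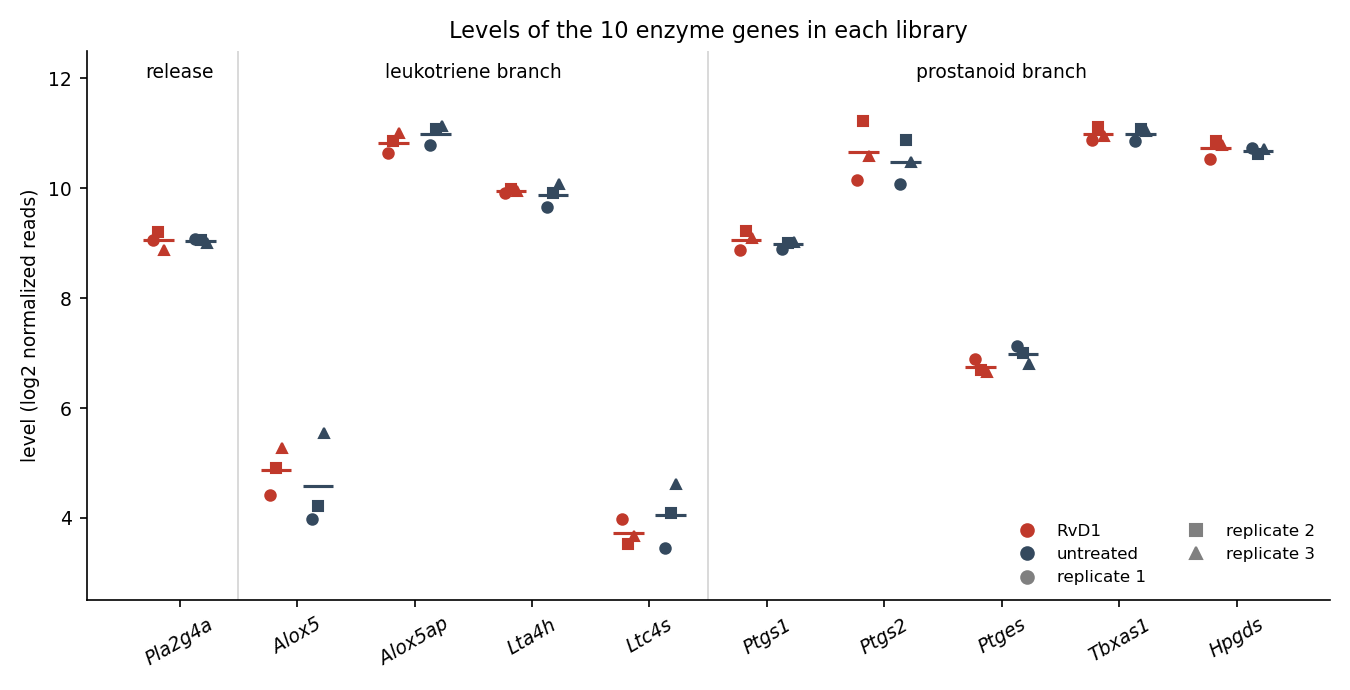
Level of each of the 10 enzyme genes (log2 normalized reads, vertical axis) in every library, with RvD1 in red left of untreated in dark blue, a symbol for each replicate number and bars at the group means (n = 3 per group). The groups overlap for each gene, Ptgs2 spreads from 10.08 to 11.22 over the 6 libraries, and Alox5 and Ltc4s stand lowest.

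Pla2g4a encodes cytosolic phospholipase A2 alpha, which releases arachidonic acid from membranes. It lies on chromosome 1 at 149829618 to 149961290 (mm10, minus strand, protein-coding). Its level was 9.07, 9.20 and 8.88 in RvD1 libraries and 9.07, 9.06 and 9.001 in untreated libraries, so the RvD1 values lay on both sides of the untreated ones. The fold, RvD1 over untreated, was 1.00 (0.876 to 1.15 as its 95% interval; limma adjusted p = 0.982 with 3 libraries a group). In that assembly its neighbour is Ptgs2, 138.7 kb away on the opposite strand with 0 protein-coding genes between them.

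The leukotriene branch held the most and the least abundant of the 10 genes per unit of length. Alox5ap, which encodes FLAP, the membrane protein that hands arachidonic acid to 5-lipoxygenase, stood at 10.63, 10.86 and 10.998 in RvD1 libraries and 10.79, 11.07 and 11.12 in untreated libraries. The RvD1 values reached into the untreated range, and the fold was 0.892 (0.747 to 1.07; limma adjusted p = 0.462). Lta4h encodes leukotriene A4 hydrolase, which makes leukotriene B4. It was 9.92, 9.98 and 9.94 in RvD1 libraries and 9.65, 9.91 and 10.07 in untreated libraries, and the RvD1 values all fell inside the untreated range (fold 1.05, 0.900 to 1.22; limma adjusted p = 0.743).

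Alox5, which encodes 5-lipoxygenase itself (chromosome 6, 116410077 to 116461178, minus strand, mm10), was far lower than its partner. Its level was 4.42, 4.91 and 5.27 in RvD1 libraries and 3.98, 4.22 and 5.54 in untreated libraries, or 26.5 to 39.1 and 13.0 to 32.8 estimated reads in the RvD1 and the untreated group. Replicate 3 was the highest library of each group, and the difference of 0.29 on the log2 scale had an interval of -0.64 to 1.22 (limma adjusted p = 0.745). Replicate 3 also had the highest sum of the 9 neutrophil markers in each group, 14295 against 5431 and 7634 in the other RvD1 libraries and 14689 against 4191 and 6634 in the other untreated libraries. The macrophage, platelet and eosinophil and basophil marker sums were highest in replicate 3 of each group as well, and the part of any of these cell types in the Alox5 level was not tested.

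Ltc4s encodes leukotriene C4 synthase, the glutathione-conjugating enzyme at the head of the cysteinyl leukotrienes. It was 3.98, 3.53 and 3.67 in RvD1 libraries and 3.46, 4.09 and 4.61 in untreated libraries. The untreated range enclosed every RvD1 value (fold 0.80, 0.480 to 1.33; limma adjusted p = 0.627). These levels stand for 10.2 to 20.7 estimated reads in RvD1 and 9.03 to 19.2 in untreated libraries. Counting alone gives an SD of 0.48 (log2) at the lowest of them and a smaller one at the others. The SD within groups, pooled over all libraries, was 0.44, so it is not directly comparable with the value at the lowest library. A short antisense gene model, Gm26542, overlaps Ltc4s and had a mean level of 2.30. The labels' protocols describe no step that marks strand, so reads of the pair cannot be told apart.

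**Figure D2:**
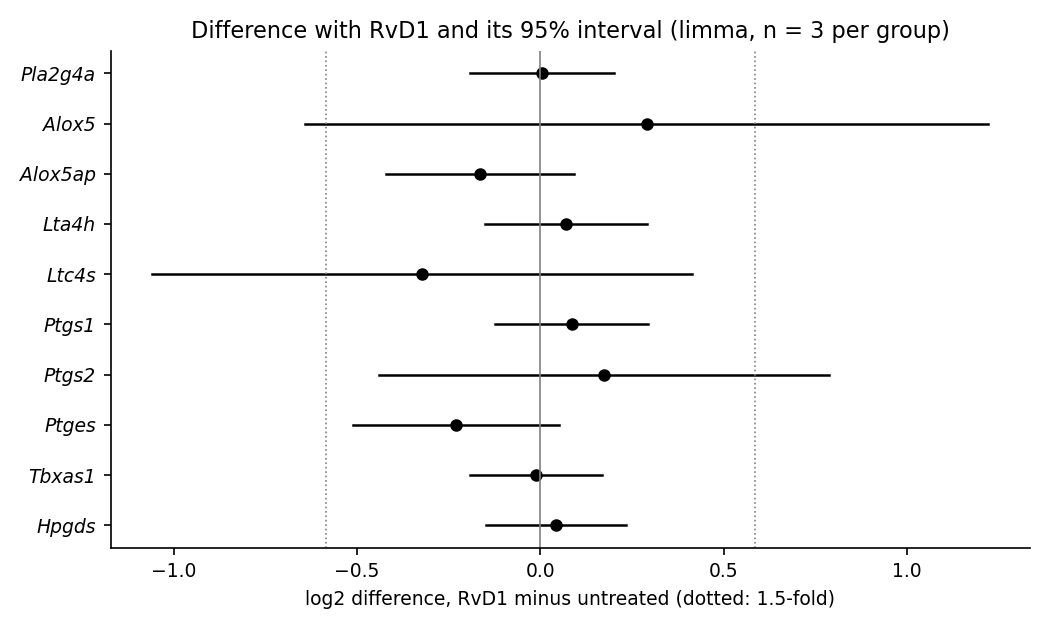
Difference between RvD1 and untreated macrophages (log2, RvD1 minus untreated, horizontal axis) for each of the 10 enzyme genes, with its 95% interval from limma (n = 3 per group) and dotted lines at a 1.5-fold change. All 10 intervals include 0, and those of Alox5, Ltc4s and Ptgs2 reach past a dotted line.

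The prostanoid branch starts with the cyclooxygenases. Ptgs1 encodes the constitutive enzyme COX-1, and Ptgs2 the inducible enzyme COX-2. Ptgs1 was 8.88, 9.21 and 9.09 in RvD1 libraries and 8.89, 9.004 and 9.03 in untreated libraries (fold 1.06, 0.918 to 1.23; limma adjusted p = 0.652). Its highest and its lowest value both came from RvD1 libraries, and the 6 libraries spanned 1.26-fold. Ptgs2 was 10.14, 11.22 and 10.59 in RvD1 libraries and 10.08, 10.88 and 10.47 in untreated libraries. Replicate 2 was highest and replicate 1 lowest in each group, and the 6 libraries spanned 2.21-fold, with 888 estimated reads or more in every one. The fold between groups was 1.13 (0.737 to 1.73; limma adjusted p = 0.771), and its direction turned without RvD1 replicate 2 (log2 difference -0.11), without untreated replicate 1 (-0.02) and once length and GC content of the transcripts were corrected for (-0.02).

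The upstream sequences of the cyclooxygenase genes are shown because these genes code for enzymes of the same reaction and their transcripts differed in spread between libraries. Each is the 150 bases before the start site, 5′ to 3′ on the gene's own strand, from RefSeq (GRCm38.p6, the assembly also called mm10), at chr1:150099881-150100030 (plus strand) for Ptgs2 and chr2:36230276-36230425 (plus strand) for Ptgs1. Capitals mark letters that match a motif searched on both strands.
Ptgs2: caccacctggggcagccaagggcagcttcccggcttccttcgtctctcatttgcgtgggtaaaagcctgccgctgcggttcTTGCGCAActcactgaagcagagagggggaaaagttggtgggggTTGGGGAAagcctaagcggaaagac
Ptgs1: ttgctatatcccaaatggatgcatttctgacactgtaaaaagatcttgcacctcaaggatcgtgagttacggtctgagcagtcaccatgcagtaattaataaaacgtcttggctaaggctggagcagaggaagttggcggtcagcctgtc

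The 250 bases before the start were searched for 8 short motifs. Those of bZIP-type factors were TTNNGNAA for C/EBP, TGANTCA for AP-1 and TGACG as the core of a cAMP response element. The NF-kB motif was GGGANTTCC, and the E-box was CACGTG. The motifs of general promoter elements were the TATA box as TATAAA, the GC box as GGGCGG and the CAAT box as CCAAT. The Ptgs2 window held TTNNGNAA starting 69 bases before the start, where it reads the same on both strands, and again at 25, and GGGCGG at 170, outside the printed stretch. The Ptgs1 window held none of the 8. TTNNGNAA is common: it stood in 36.9% of the 32851 promoters of the same length, GGGCGG in 32.7% and CCAAT in 33.9%, against 17.8% for TGACG, 12.4% for TATAAA, 6.75% for TGANTCA, 6.02% for CACGTG and 1.43% for GGGANTTCC. The matches describe letters and say nothing of a factor bound there. Only bases before the RefSeq start were searched, so motifs beyond it, or near another start site, were not seen. A motif missing from a window is therefore not shown to be missing from the promoter. Of the 10 genes, 9 had an entry in the promoter table.

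Ptgs2 stood apart from the other abundant enzyme genes by its spread between libraries of the same group. Its SD within groups, pooled, was 0.48 (log2), against a median of 0.08 over the 1657 genes whose mean lay within 0.5 of its own, which put it at the 99.8th percentile of those genes. Alox5, at an SD of 0.67, was at the 95.9th percentile of 1230 genes of like level, Alox5ap, at 0.18, at the 95.5th of 1266 and Lta4h, at 0.15, at the 90.1st of 2268. The other 6 lay between the 42.1st percentile for Ptges and the 82.7th for Hpgds. The stromal marker sum was lowest where Ptgs2 was highest in each group, 57559, 36933 and 42517 in RvD1 replicates 1, 2 and 3 and 47590, 40581 and 44521 in untreated replicates 1, 2 and 3. The mast cell and lymphocyte marker sums were also lowest in replicate 2 of each group. The part of these cell types in the Ptgs2 level was not tested.

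**Figure D3:**
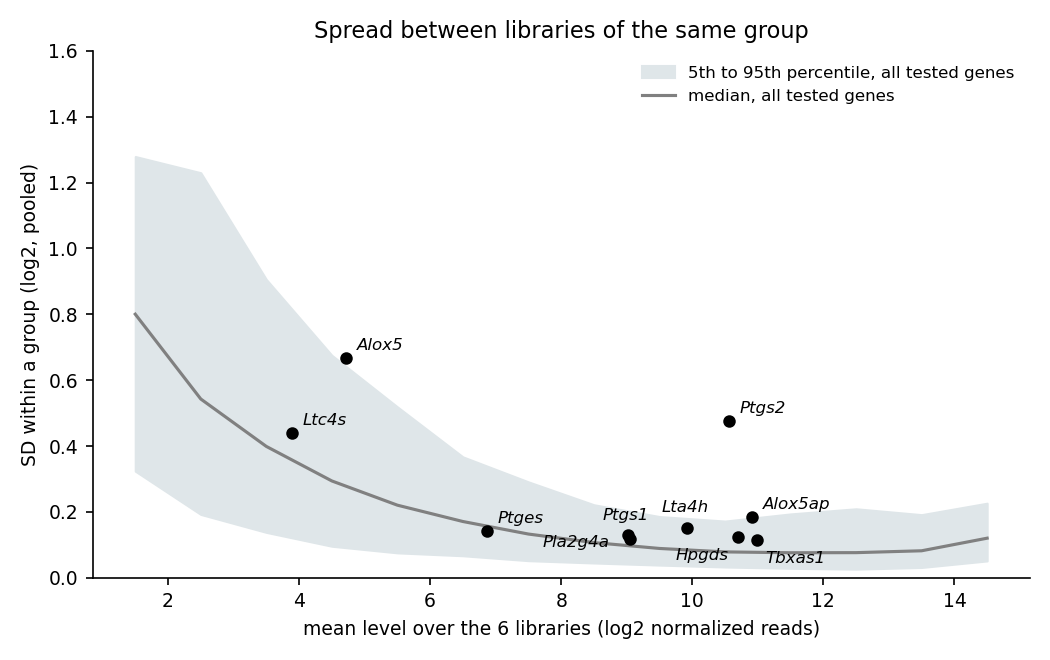
SD between libraries of the same group (log2, pooled over both groups, vertical axis) against the mean level over the 6 libraries (log2 normalized reads, horizontal axis) for the 10 enzyme genes, over the median and the 5th to 95th percentile of all tested genes in steps of 1 log2 unit. Ptgs2, with an SD of 0.48 at a mean of 10.56, lies far above the band.

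The terminal synthases compete for prostaglandin H2. Tbxas1, which encodes thromboxane A synthase, was 10.88, 11.11 and 10.95 in RvD1 libraries and 10.87, 11.07 and 11.05 in untreated libraries, and it was the steadiest of the 10, spanning 1.19-fold over the 6 libraries (fold between groups 0.992, 0.875 to 1.12; limma adjusted p = 0.953). Hpgds, the hematopoietic prostaglandin D synthase, was 10.54, 10.85 and 10.78 in RvD1 libraries and 10.72, 10.61 and 10.71 in untreated libraries, with untreated values enclosed by RvD1 ones (fold 1.03, 0.902 to 1.18; limma adjusted p = 0.822). Ptges encodes microsomal prostaglandin E synthase 1, the inducible enzyme that is often coupled to COX-2. It was 6.89, 6.69 and 6.66 in RvD1 libraries and 7.13, 6.99 and 6.81 in untreated libraries. Of the 10 genes it had the smallest p, and RvD1 replicate 1 alone overlapped the untreated libraries (fold 0.852, 0.702 to 1.04; limma adjusted p = 0.341, unadjusted p = 0.0957). Tbxas1 shares part of its locus with Hipk2, a kinase gene on the other strand that had a mean level of 9.90, so some reads counted for either may belong to the other.

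By the smallest root mean square difference of the 6 centred log2 values, the genes most like Ptges among 72 of the pathway lists above 0 in every library were Slco2a1 (0.07), which encodes a prostaglandin transporter, Pla2g16 (0.11), a phospholipase gene, and Camk2g (0.11), a calcium-dependent kinase gene. The median of that distance over the 72 genes was 0.24. Slco2a1 was 9.95, 9.92 and 9.68 in RvD1 libraries and 10.15, 10.10 and 9.84 in untreated libraries (log2 difference -0.18, limma adjusted p = 0.365).

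Per kilobase of the longest transcript, the order of levels over all 6 libraries was Alox5ap, Tbxas1, Hpgds, Ptgs2, Lta4h, Ptgs1, Pla2g4a, Ptges, Ltc4s and Alox5. Alox5ap averaged 10.59 ± 0.19 (log2 per kb, SD, n = 6), 3.46-fold over Tbxas1 and above 97.0% of 18549 tested genes with a known length. Tbxas1 (8.80 ± 0.10), Hpgds (8.74 ± 0.11), Ptgs2 (8.41 ± 0.44) and Lta4h (8.22 ± 0.14) followed, each overlapping its neighbour in range. Ptgs1 (7.50 ± 0.13) was below every one of these and overlapped Pla2g4a (7.26 ± 0.11). A gap of 4.80-fold separated Pla2g4a from Ptges (4.995 ± 0.18), which overlapped Ltc4s (4.37 ± 0.43), and Alox5 (2.88 ± 0.62) was last, 2.81-fold under Ltc4s with no overlap. The lipoxygenase and its partner protein thus stood at opposite ends of the order. The transcript expressed may be shorter than the longest one, so the order and the gaps depend in part on that choice of length.

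**Figure D4:**
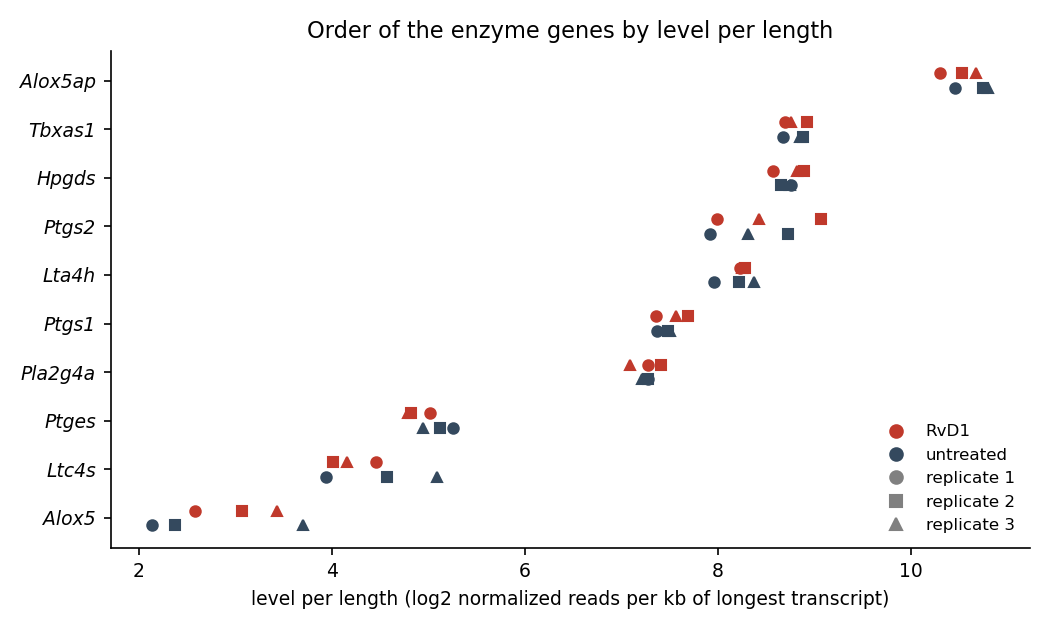
Level per length of the 10 enzyme genes (log2 normalized reads per kb of the longest transcript, horizontal axis), in order of their means, with RvD1 libraries in red above untreated libraries in dark blue. Alox5ap lies alone at the top, from 10.31 to 10.80, and Alox5 at the bottom, from 2.14 to 3.70.

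Ratios of enzymes that share a substrate or a reaction were formed within each library, and none of the 4 separated the groups. In an exact permutation test of 3 libraries against 3, two-sided, the smallest possible p is 0.1. The log2 ratio of Ptgs2 to Ptgs1 was 1.26, 2.01 and 1.49 in RvD1 libraries and 1.19, 1.88 and 1.44 in untreated libraries (difference 0.09, exact permutation p = 0.7). That of Ltc4s to Lta4h, which share leukotriene A4, was -5.94, -6.44 and -6.27 in RvD1 libraries and -6.19, -5.82 and -5.46 in untreated libraries (difference -0.39, exact permutation p = 0.2). The ratio of Ptges to Tbxas1 differed by -0.22 (exact permutation p = 0.4) and that of Alox5 to Ptgs1 by 0.20 (exact permutation p = 0.6), and all 4 had a Benjamini-Hochberg adjusted p of 0.7.

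The rest of the pathway was examined through 80 further genes in 7 lists. Of these, 66 were tested and 14 fell under the filter, 12 of them listed at 0 in every library. None of the 66 passed over all genes (limma, 0 higher and 0 lower against 1.12% of all tested genes; without adjustment 5 were higher and 12 lower, against 10.3% higher and 9.65% lower of all tested genes). In 17 of the 66 no RvD1 value overlapped the untreated ones, a share near the 25.4% found over all tested genes. Their median log2 difference was -0.04.

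Among terminal synthases and leukotriene-converting enzymes, 11 of 13 genes were tested and 0 passed (limma; 0 higher and 2 lower without adjustment). Mgst3, a microsomal glutathione transferase that can also make leukotriene C4, had the smallest p. It was 7.61, 7.47 and 7.21 in RvD1 libraries and 7.84, 7.89 and 7.91 in untreated libraries. Every RvD1 value was below every untreated one, at a fold of 0.731 (0.613 to 0.871; limma adjusted p = 0.0822), and the gene passed without RvD1 replicate 1 (limma adjusted p = 0.0497) but not without any other library (limma adjusted p = 0.152 to 0.238). Its relative Mgst2 had a fold of 0.775 (0.502 to 1.19; limma adjusted p = 0.504). The most abundant genes of the list were Ptges3, a co-chaperone with prostaglandin E synthase activity, at 10.15 ± 0.06 in RvD1 and 10.06 ± 0.04 in untreated libraries, and Dpep2, a dipeptidase that converts leukotriene D4, at 9.55 ± 0.27 and 9.54 ± 0.18 in those groups (log2, SD, n = 3).

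Of the other 6 lipoxygenase genes, 2 were tested and 0 passed (limma; 0 without adjustment). Alox15, which encodes the 12/15-lipoxygenase of resident mouse macrophages, was listed at 0 in every RvD1 library and in untreated replicates 1 and 2, and at 0.50 in untreated replicate 3. Alox12, the platelet enzyme gene, was near the floor at 1.82 ± 0.58 in RvD1 and 2.59 ± 1.54 in untreated libraries.

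The phospholipases A2 and the reacylation enzymes set how much free arachidonic acid there is. Of 11 tested phospholipase genes 0 passed (limma; 1 higher and 2 lower without adjustment). Pnpla8, a calcium-independent phospholipase gene, had the smallest p, at 9.63 ± 0.11 in RvD1 and 9.41 ± 0.11 in untreated libraries (fold 1.16, 1.03 to 1.32; limma adjusted p = 0.177), and its direction turned after the length and GC correction (log2 difference -0.10). Of 11 reacylation genes 0 passed (limma; 1 higher and 1 lower without adjustment). Acsl4, the acyl-CoA synthetase that favours arachidonic acid, had the smallest p of all 66 genes. It was 10.71, 10.89 and 10.84 in RvD1 libraries and 10.55, 10.52 and 10.41 in untreated libraries. Every RvD1 value was above every untreated one, at a fold of 1.25 (1.12 to 1.39; limma adjusted p = 0.0628). It passed when genes with a mean log2 value under 5 were left out (limma adjusted p = 0.0438) and without RvD1 replicate 1 (limma adjusted p = 0.0412), but not without any other library (limma adjusted p = 0.123 to 0.216). The length and GC correction left a log2 difference of 0.09 for Acsl4, against 0.32 without it (limma adjusted p = 0.573).

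Receptors receive the products on the same or other cells. Of 11 tested receptor genes 0 passed (limma; 2 higher and 3 lower without adjustment), and the groups were apart in 6 of the 11, against 25.4% of all tested genes. These 6 went both ways, with Ptger1, Ptger2 and Ptger4 lower and Cysltr1, Cysltr2 and Tbxa2r higher with RvD1. Tbxa2r was at the floor in 2 libraries and had at most 2.73 estimated reads, and Cysltr2 had 4.01 to 11.2. Cysltr1, a receptor for cysteinyl leukotrienes, was 7.30, 7.60 and 7.56 in RvD1 libraries and 7.01, 6.85 and 7.21 in untreated libraries. The RvD1 values lay above the untreated ones, at a fold of 1.38 (1.13 to 1.69; limma adjusted p = 0.102). With the length and GC correction its log2 difference was 0.19, against 0.47 without it (limma adjusted p = 0.587). The most abundant receptor gene was Ptger1, for prostaglandin E2, at 10.31 ± 0.07 in RvD1 and 10.51 ± 0.09 in untreated libraries (fold 0.871, 0.786 to 0.965; limma adjusted p = 0.147). Ptger4 and Ptger2, for the same ligand, were 7.85 ± 0.06 and 7.28 ± 0.11 in RvD1 libraries and 8.09 ± 0.12 and 7.59 ± 0.20 in untreated libraries, with limma adjusted p = 0.190 and 0.202.

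Of 8 genes of inactivation and transport 0 passed (limma; 1 higher and 1 lower without adjustment). Ptgr2, a reductase that inactivates prostaglandins, had a fold of 1.13 (1.02 to 1.26; limma adjusted p = 0.183), and its log2 difference was 0.07 after the length and GC correction, against 0.18 before it. Abcc1, an exporter of leukotriene C4 and the most abundant of the list, was 12.06 ± 0.13 in RvD1 and 12.26 ± 0.05 in untreated libraries (limma adjusted p = 0.185). Of 12 genes whose proteins activate, bind or restrain these enzymes 0 passed (limma; 0 higher and 3 lower without adjustment). Cotl1, which encodes a binding partner of 5-lipoxygenase, was 12.70, 12.51 and 12.71 in RvD1 libraries and 12.82, 12.89 and 12.93 in untreated libraries (fold 0.846, 0.757 to 0.944; limma adjusted p = 0.116). The groups did not overlap in that gene, but its log2 difference was -0.07 after the length and GC correction, against -0.24 before it (limma adjusted p = 0.650). Anxa1, whose product restrains cytosolic phospholipase A2, was the most abundant of the list, at 13.62 ± 0.10 in RvD1 and 13.52 ± 0.03 in untreated libraries, and the kinase genes Mapk14 and Mapkapk2, whose products act upstream of 5-lipoxygenase and cytosolic phospholipase A2, had log2 differences of 0.01 and -0.06 (limma adjusted p = 0.954 and 0.637).

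**Figure D5:**
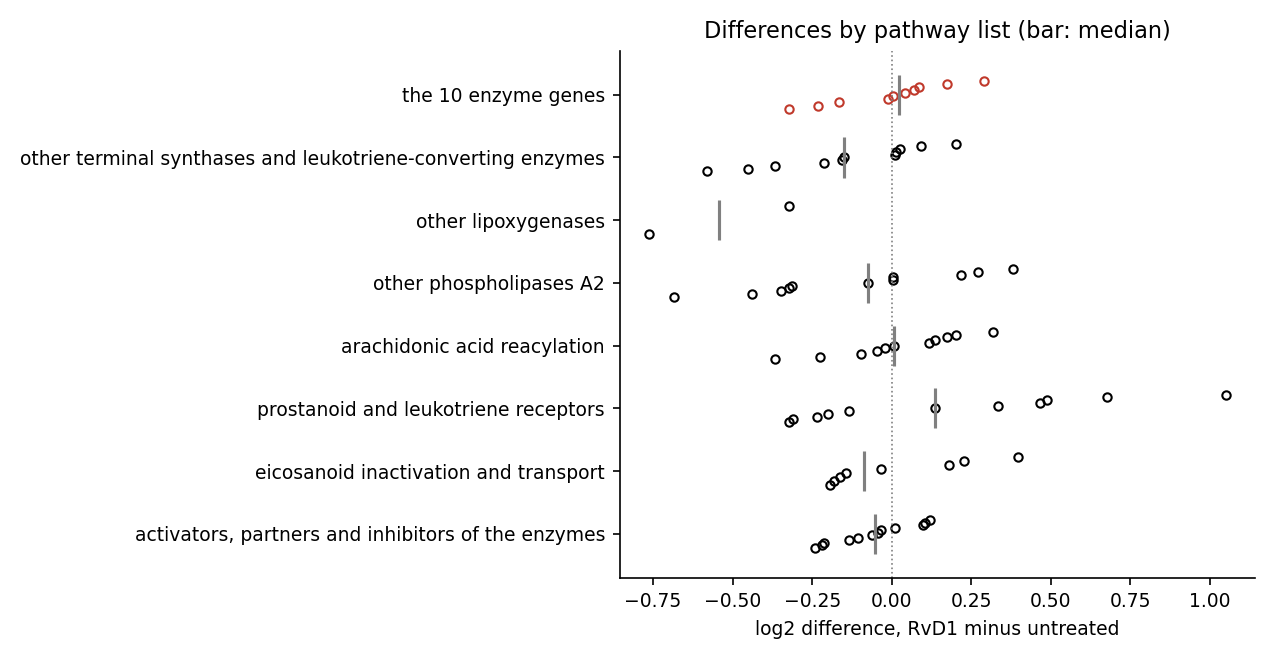
Log2 difference (RvD1 minus untreated, horizontal axis) of each tested gene, for the 10 enzyme genes (red) and the 7 further lists (black), 1 point per gene, with a bar at each list's median. The medians run from -0.54 for the 2 tested lipoxygenase genes to 0.14 for the receptor genes, and that of the 10 enzyme genes is 0.02.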

How the data were processed

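Poly-A selected RNA was sequenced in 6 libraries, made with a TruSeq kit from 100 to 400 ng of total RNA per the labels' protocols. Per the submitters' processing notes, TopHat2 2.0.7 and mm10 were used; for counter, annotation and normalization, no tool is given in these sources. The authors deposited log2 values, described in the file headers only as normalized; the log2 scale was inferred from the values, whose antilogs sum to 12.4 to 12.8 M per library. A value of 0 is a floor of 1 normalized read, so differences of genes near it can be understated or can arise from the floor. The estimated size of 1 read was 0.76 normalized reads in RvD1 replicate 1 and 1.41 in untreated replicate 3. A single read would thus be listed at 0 in the former library but not in the latter. Whole reads were not recovered (at most 51.4% of low values lay within 0.02 of a whole read), so no count test was run.

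Groups came from sample titles. limma 3.58.1 (R 4.3.3, variance prior following the mean, treatment only) was run on the 18899 genes above 0 in at least 3 libraries, two-sided, with Benjamini-Hochberg adjustment and a threshold of 0.05. Ratios were compared by exact permutation. Lengths, places and GC content came from GENCODE M21 (mm10). The fit was checked on simulated data. It recovered 81.3% of 2-fold changes at a mean log2 of 5 or more, and 8% under 5. Of 1.5-fold changes it recovered 54.1% at a mean log2 of 5 or more, and 0% under 5. Alox5 and Ltc4s had means under 5. The members, gene lists and tests were chosen with earlier results of these data known. Named genes were the 10 members, the smallest p and up to 4 most abundant genes of each list, any called gene, and the 3 genes most like the member of smallest p. Mgst2, Mapk14, Mapkapk2, Alox15, Cysltr2 and Tbxa2r were named after their values were seen. Alternatives were leaving out each library, a replicate block, other scalings, filters, a pseudocount of 8, a prior without trend, and splines in length and GC content with 4 degrees of freedom each.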

Additional observations from a re-analysis of the deposited data

How the results depend on the processing

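None of the 10 enzyme genes passed the limma test under any alternative without a replicate block. Over the alternatives without a block the limma adjusted p ranged from 0.240 to 0.589 for Ptges and from 0.358 to 0.986 for Ptgs2. The counts over all genes were less stable than this. Leaving out 1 library gave 0 to 239 genes higher and 0 to 212 lower with RvD1 and 0 to 2 of the other pathway genes. Without RvD1 replicate 1 the calls rose to 451 in all, while without RvD1 replicate 2, RvD1 replicate 3 or untreated replicate 3 there were 0 calls (limma; 2623, 3203 and 3045 genes at an unadjusted p under 0.05), and without untreated replicate 1 or 2 there were 5 and 3.

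Log2 differences turned sign when a library was left out for Pla2g4a (-0.072 to 0.090), Alox5 (-0.0087 to 0.77), Lta4h (-0.043 to 0.17), Ptgs2 (-0.11 to 0.43), Tbxas1 (-0.077 to 0.038) and Hpgds (-0.022 to 0.14), and so did the differences in the log2 ratios of Ptgs2 to Ptgs1 (-0.12 to 0.28) and of Alox5 to Ptgs1 (-0.054 to 0.66). Pla2g4a turned to -0.0026 with centring on the median and to -0.0064 with quantile normalization. The length and GC correction turned Pla2g4a (-0.10), Lta4h (-0.023), Ptgs2 (-0.022), Hpgds (-0.11) and Pnpla8 (-0.10), with the same values when joined to the block. None of these values passed the test, and the cause was not tested.

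Over all genes, centring on the median gave 60 higher and 98 lower, against 106 and 105. Keeping genes above 0 in at least 1 library gave 5 higher and 7 lower. A mean log2 value of at least 5 gave 218 higher and 246 lower with 1 other pathway gene, Acsl4, and left no value for Alox5 and Ltc4s. A prior without trend gave 1 higher and 0 lower, and the length and GC correction 14 higher and 16 lower.

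Replicate numbers occur in both groups, but the labels do not say that a number marks a shared mouse or day. Deviations of same-numbered libraries correlated at 0.30, -0.08 and 0.42 over 13176 genes. Replicates 1 and 3 of each group correlated best with their own number, and replicate 2 did not. These values do not settle whether the samples were paired, and the numbers were not taken to pair them. With a replicate block 1049 genes were higher and 847 lower, or 10.0% of those tested. Those included 1 of the 10 enzyme genes, Alox5ap (log2 difference -0.16, limma adjusted p = 0.0472), and 11 other pathway genes, among them Acsl4, Cotl1, Mgst3, Cysltr1 and Pnpla8 (limma adjusted p = 0.0183 to 0.0451). With the length and GC correction joined to the block, none of these 5 passed (limma adjusted p = 0.0655 to 0.358). Joined to the length and GC correction, the block gave 306 higher and 456 lower, with 5 other pathway genes and 0 of the 10. For Ptgs2 the block narrowed the interval of the log2 difference to 0.037 to 0.31, from -0.44 to 0.79 (limma adjusted p = 0.106). Block and correction together gave an interval of -0.12 to 0.071 for that gene (limma adjusted p = 0.822). Depth limits Alox5 and Ltc4s, which rest on 39.1 estimated reads or fewer in each library.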
